A study of Rattus norvegicus with 30 samples.

Results

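The livers of chimeric mice carrying rat hepatocytes and the livers of SD rats were compared for how they responded to dietary phenobarbital (PB). The quantity described is the difference of responses, the PB effect in chimeric mice minus the PB effect in SD rats on a log2 scale, so that a positive value means a higher PB-to-control ratio in chimeric mice. It rests on 22 of the 30 arrays of the series, chosen by their labels: 7 chimeric mice on PB, 7 chimeric mice on control diet, 4 SD rats on PB and 4 SD rats on control diet. The other 8 arrays, from rats lacking the constitutive androstane receptor (CAR), entered only the shared estimate of the spread. All animals were male. PB was given in the diet at 1000 ppm for 7 days, and control animals received 0 ppm over the same time. The rats were Crl:CD(SD). Ages, the host strain of the mice, the share of each liver held by rat hepatocytes and the food eaten are not given in the sources used here, so the same dietary concentration need not be the same dose per body weight. In chimeric mice of this kind transplanted rat hepatocytes repopulate the liver, while the other liver cells and any remaining hepatocytes are those of the mouse host.

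Phenobarbital is the classic inducer of hepatic drug metabolism. It releases the nuclear receptor CAR (Nr1i3) from its cytoplasmic complex, and CAR in the nucleus binds response elements of genes for cytochromes P450, conjugating enzymes and export pumps, partly shared with the pregnane X receptor (PXR, Nr1i2). In rodent liver the treatment is also known for an early burst of hepatocyte replication and for lower expression of some genes of fatty acid oxidation. A comparison of rat hepatocytes in a mouse host with those in the rat asks how much of that response the transplanted cells keep.

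Each array was scaled to its own 75th percentile, and a level below is the log2 signal relative to that percentile, which cannot be compared between genes. The 75th percentile of the processed signal was 198 to 312 on chimeric PB arrays, 216 to 318 on chimeric control arrays, 431 to 444 on SD PB arrays and 414 to 460 on SD control arrays. Probes well above background made up 50.8% to 55.0% on chimeric PB arrays and 51.5% to 58.1% on chimeric control arrays, against 58.7% to 60.8% on SD PB arrays and 63.3% to 64.6% on SD control arrays. All 17 hepatocyte markers were well above background on every array of the 4 groups. The response of none of them differed between the models, beside 7.20% of all genes measured in both called higher and 13.5% called lower. Macrophage markers averaged -2.46 to -1.98 on chimeric PB arrays and -2.04 to -1.6 on chimeric control arrays. They averaged 1.34 to 1.62 on SD PB arrays and 1.40 to 1.83 on SD control arrays. Fewer cells of a type and less RNA per cell cannot be told apart in whole liver, and neither can rat RNA and mouse RNA that binds a rat probe. How well mouse RNA binds the rat probes was not tested. A low marker level in chimeric livers therefore need not mean fewer cells of that type.

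The layout of the slides bears on every result. The 7 chimeric control arrays shared slide 1 with chimeric PB replicate 1, whereas chimeric PB replicates 2 to 7 lay together on slide 2, and the 8 SD arrays shared slide 3, its controls and PB arrays in different rows. Relative to the 75th percentile, the array median was -4.21 to -4.01 log2 units on slide 2, compared with -3.81 for chimeric PB replicate 1 and -3.96 to -3.68 on the chimeric control arrays. For replicates 2 to 7 the slide and the diet cannot be told apart, and in SD rats the row and the diet cannot. No slide held arrays of both models. Wherever levels of chimeric and SD livers are compared below, the model and the slide therefore cannot be told apart. Many differences are therefore given also from replicate 1 alone, called the within-slide value, and others are given without it. The within-slide value has 1 PB array behind it and is assumed to vary like the other arrays. It is not independent, because replicate 1, the chimeric controls and the 8 SD arrays also enter the value over all 7 PB arrays. The SD response is the same in both values, so a difference that lies mainly in SD rats is hardly checked by it.

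The difference of responses passed the test (limma, Benjamini-Hochberg adjusted p under 0.05) for 3254 of 17255 genes or unnamed transcripts, 18.9% of them. Of these, 1085 (6.29%) were higher and 2169 (12.6%) lower in chimeric mice, so that 33.3% of the calls were higher. With arrays centred on their median instead, 67.5% of the calls were higher, as that centring moved the median difference of all genes to 0.35 from 0.08. Among the 14199 genes measured in both models, meaning well above background on at least 75% of the arrays of 1 diet group in each, 1023 (7.20%) were higher and 1917 (13.5%) lower. Taken alone, the chimeric response passed for 8379 genes (48.6%), of which 3986 rose (23.1%), and the SD response for 201 (1.16%), of which 155 rose (0.898%). Without SD PB replicate 3 the SD response passed for 118.

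Many of these values were smaller within the slide, although 2639 of the 2940 calls kept their sign there. The median difference of the genes called lower was -1.12 with all PB arrays and -0.30 within the slide, and that of the genes called higher was 0.61 with all PB arrays and 0.33 within the slide. With the slide as a term of the fit, 21 of the 14199 genes passed, 10 higher (0.0704%) and 11 lower (0.0775%), and 16 of them (0.113%) also passed without it. A difference is called held below when it passed the test, its within-slide value had the same sign and at least the main value divided by 1.5, and its unadjusted within-slide p was under 0.05. By that rule 241 genes (1.70%) were higher and held, and 152 (1.07%) were lower and held.

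**Figure D1:**
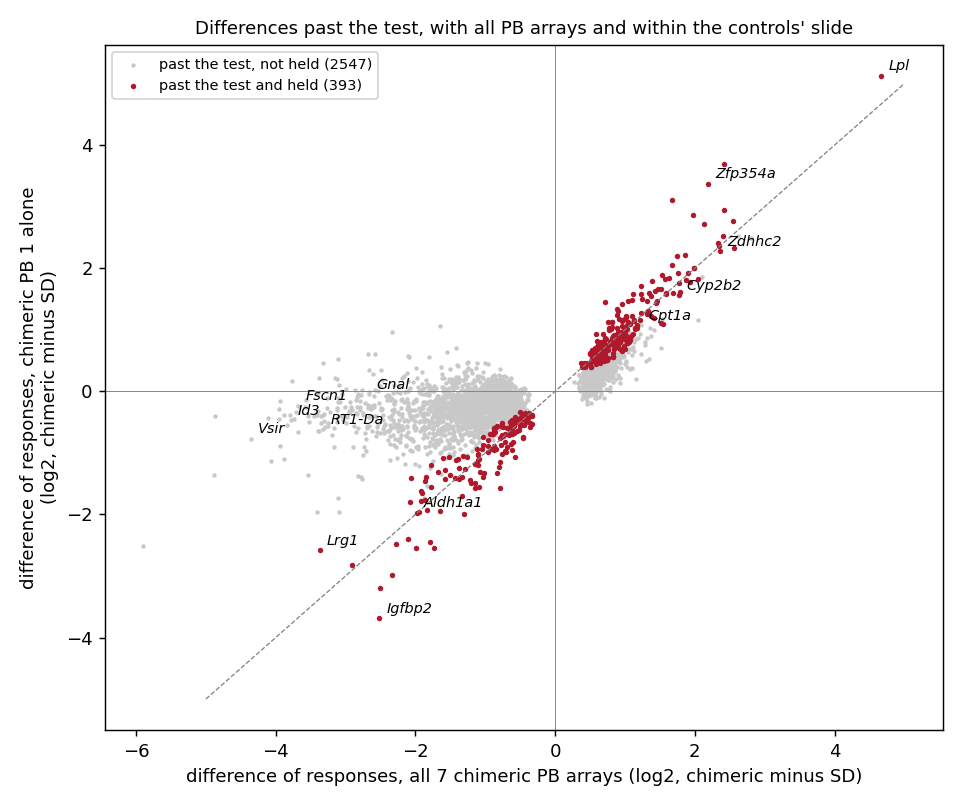
Each point is 1 of the 2940 genes measured in both models whose difference of responses passed the test. The horizontal axis gives the difference (log2, chimeric minus SD) with all 7 chimeric PB arrays, the vertical axis that with chimeric PB replicate 1 alone, and the dashed line marks equal values. The 393 held genes (red) lie along the line, whereas a cloud of lower genes such as Vsir and Fscn1 lies near 0 on the vertical axis.

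Most genes called in SD rats had a response of the same sign in chimeric mice. Of 134 genes measured in both models that rose in SD rats, 132 had a chimeric response of the same sign with all PB arrays and 129 with replicate 1 alone. Their median response was 1.27 in chimeric mice, or 1.05 from replicate 1, against 1.06 in SD rats. The difference passed as higher for 28 of them (13 held) and as lower for 13 (8 held), beside 7.20% and 13.5% of all genes called and 1.70% and 1.07% held. Of 27 genes that fell in SD rats, 22 had a negative chimeric response with all PB arrays and 24 with replicate 1 alone. Their median response was -0.76 in chimeric mice, or -0.87 from replicate 1, against -1.24 in SD rats. For these 27 the difference passed as higher for 5 (3 held) and as lower for 1. These genes were picked by the SD arrays that also enter the difference, so the split is a description.

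**Figure D2:**
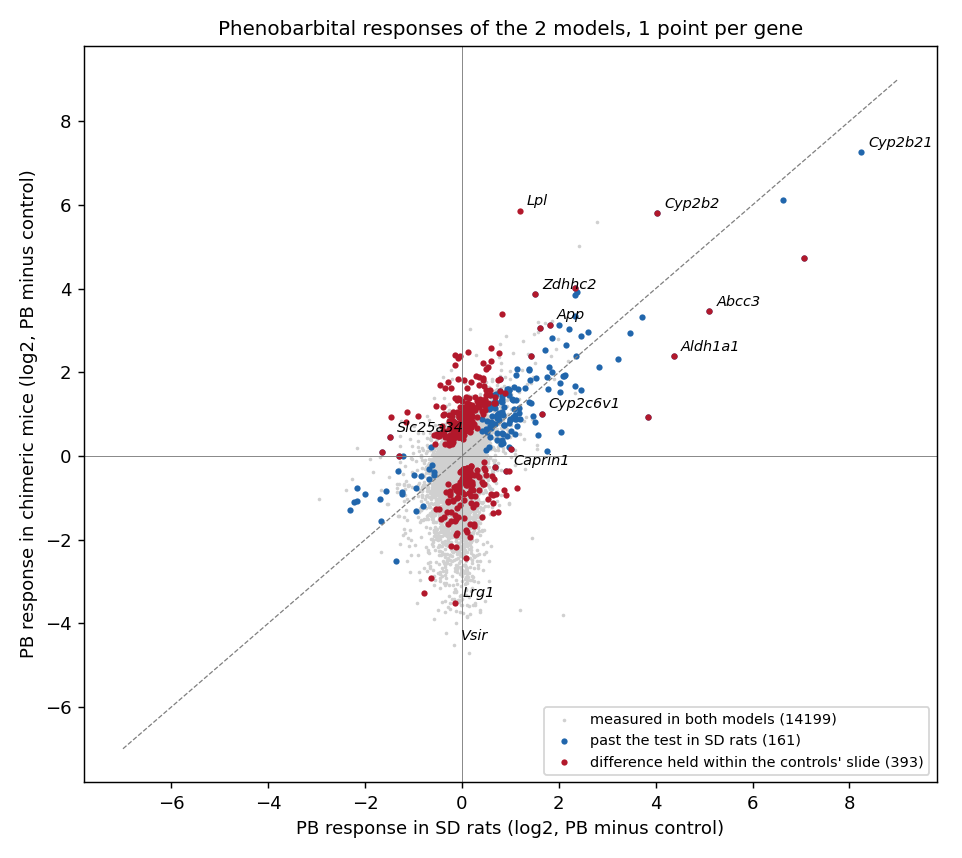
Each point is 1 of 14199 genes measured in both models, with its PB response in SD rats on the horizontal axis and in chimeric mice on the vertical axis (log2, PB minus control), and the dashed line marks equal responses. The 161 genes past the test in SD rats (blue) follow the line, and the 393 genes whose difference was held (red) lie above it, as Lpl, Cyp2b2 and Zdhhc2 do, or below it, as Aldh1a1 and Abcc3 do.

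Among the genes fixed as CAR and PXR targets, Cyp2b2, a CYP2B enzyme and the marker of CAR activation, differed as higher and was held. Its level on the 7 chimeric PB arrays ranged from 5.86 to 7.35 with a median of 6.54, against -0.01 to 1.63 with a median of 0.92 on chimeric control arrays. In SD rats, PB livers had 6.89, 7.11, 7.35 and 6.56, against 2.84, 3.21, 2.84 and 2.88 in SD control livers. PB and control arrays did not overlap in either model. The PB levels of the 2 models overlapped, whereas every chimeric control lay below every SD control. The response was 5.80 ± 0.21 in chimeric mice (SE), a 55.9-fold rise, and 4.03 ± 0.28 in SD rats, a 16.4-fold rise. The difference of 1.77 ± 0.35 had an adjusted p of 0.000892 by limma, and its within-slide value was 1.56. A second Cyp2b2 probe gave responses of 7.57 in chimeric mice and 6.96 in SD rats and a difference of 0.61 with an adjusted p of 0.192. CYP2B genes are near-identical in sequence, so the probes may share signal among them.

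Cyp2b21, another CYP2B gene, was well above background on every PB array of both models, but on none of the 7 chimeric control arrays and 1 of 4 SD control arrays. Its PB levels were -0.54 to 1.51 in chimeric mice and 1.54 to 2.64 in SD rats, and the difference did not pass (adjusted p = 0.242). Cyp3a23-3a1, a main CYP3A enzyme of rat liver, rose by 1.91 ± 0.14 in chimeric mice and 2.10 ± 0.18 in SD rats, a difference of -0.19 ± 0.23 that did not pass (adjusted p = 0.608 by limma). Cyp2c6v1, a CYP2C enzyme, stood at 8.10 to 8.45 on chimeric PB arrays and 6.86 to 7.70 on chimeric control arrays. It had 8.14, 8.45, 8.32 and 8.12 in SD PB livers, against 7.06, 6.56, 6.44 and 6.39 in SD control livers. Its rise was smaller in chimeric mice, by 0.64 ± 0.21 on the log2 scale (adjusted p = 0.0303 by limma, held). The call was lost without any 1 of SD controls 2, 3 and 4 and SD PB replicates 2 and 3, and with median centring, quantile normalization or array weights.

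Of 13 P450 genes fixed as CAR and PXR targets and measured in both models, 3 differed as higher (Cyp2b2, Cyp3a62 and Cyp2a1) and 1 as lower (Cyp2c6v1), beside 7.20% and 13.5% of all genes. Their median difference was 0.01, or -0.22 within the slide, against 0.09 and -0.02 over all genes measured in both models. The receptors themselves showed no called difference: Nr1i3 had 0.49 ± 0.35 and Nr1i2 0.59 ± 0.25. Cyp1a2, a target of the Ah receptor, had 0.11 ± 0.24.

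The electron supply of the P450 system and the oxidoreductases differed in single members. Por, the reductase that passes electrons to P450 enzymes, rose by 2.97 ± 0.35 in chimeric mice. Its response of 1.57 ± 0.47 in SD rats did not pass, nor did the difference of 1.40 (adjusted p = 0.0977 by limma). Of 14 genes of the reductase, electron carrier and heme list, 1 was lower and none higher, beside 13.5% and 7.20% of all genes. It was Cyb5r1, a reductase of the cytochrome b5 family, lower by 1.29 ± 0.39 on the log2 scale and held. That call was lost with the 22 arrays fitted alone and with median centring. A second Cyb5r1 probe gave -0.49, with an adjusted p of 0.319.

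Aldh1a1, the retinaldehyde and aldehyde dehydrogenase, showed the reverse pattern to Cyp2b2. It measured 7.65 to 7.97 on chimeric PB arrays, median 7.81, against 4.94 to 5.82 on chimeric control arrays, median 5.40. SD livers under PB had 6.29, 6.15, 6.06 and 5.59, against 1.11, 2.88, 0.84 and 1.78 in SD control livers. Chimeric livers were thus higher than SD livers on both diets, with no overlap in the PB groups or in the control groups. The rise was 5.24-fold in chimeric mice and 20.7-fold in SD rats, a difference of -1.98 ± 0.43 with an adjusted p of 0.00214 by limma and a within-slide value of -1.97. The list of 14 epoxide hydrolases, aldehyde and carbonyl enzymes held 3 higher (Ephx1, Aldh3a2 and Cbr1, of which Cbr1 was held) and 1 lower, with a median difference of 0.56. Of all genes, 7.20% were called higher and 13.5% lower.

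Ephx1, the microsomal epoxide hydrolase, followed Cyp2b2. It had 4.43 to 5.77 on chimeric PB arrays and 1.07 to 2.82 on chimeric control arrays. The SD rats on PB had 5.60, 5.70, 5.57 and 5.32, against 3.33, 3.93, 3.09 and 3.82 in SD control livers. Every chimeric control again lay below every SD control. The PB ranges overlapped, with means of 5.03 in chimeric mice and 5.55 in SD rats. The difference was 1.11 ± 0.37 (adjusted p = 0.0327 by limma), with a within-slide value of 0.72 that was not held. That call was lost without any 1 of chimeric PB 5, SD controls 2 and 4 and SD PB 1 and 4. It was also lost with the 22 arrays fitted alone, normexp correction, the percentile over probes detected on all arrays and quantile normalization. The aflatoxin aldehyde reductase Akr7a3 rose by 3.04 in chimeric mice and 2.21 in SD rats, and its difference of 0.83 ± 0.33 did not pass (adjusted p = 0.0748 by limma).

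Conjugating enzymes responded in both models. Ugt2b1, a glucuronosyltransferase, rose by 2.32 ± 0.24 in chimeric mice and 3.22 ± 0.32 in SD rats, and the difference did not pass (adjusted p = 0.12 by limma). Of 11 genes of glucuronidation and UDP-glucuronate supply 4 differed as higher, namely Ugdh, Slc35d1, Ugt2b15 and Ugt2b35, beside 7.20% of all genes, and Slc35d1, a carrier of UDP-glucuronate into the endoplasmic reticulum, was held. Its second probe gave the opposite sign, -0.29, and the call was lost with normexp correction and with the mean of its probes. Of 28 glutathione transferases and sulfotransferases, Mgst2 was higher and Gsta2 lower, beside 7.20% and 13.5% of all genes. Gsta2, an alpha-class glutathione transferase, had 8.15 to 8.62 on chimeric PB arrays and 8.10 to 8.57 on chimeric control arrays, which overlap. SD PB livers had 8.05, 8.22, 8.14 and 8.29, against 6.64, 7.66, 6.37 and 8.03 in SD control livers. The difference was -0.84 ± 0.28 (adjusted p = 0.0367 by limma, held). It was lost without any 1 of chimeric control 2, chimeric PB 3 and 5, SD controls 1 and 3 and SD PB 2, 3 and 4, and with median centring, the 22 arrays fitted alone or array weights. Of 12 carboxylesterases, Ces1f was higher and Ces1a lower. Ces1a had a within-slide value of -0.26 beside a difference of -2.10, while the strongly PB-induced Ces2c showed a difference of -0.41 ± 0.41.

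Abcc2 and Abcc3, 2 multidrug resistance-associated export pumps of the hepatocyte, parted. Abcc2, the pump of the bile canaliculus, had 6.06 to 6.84 on chimeric PB arrays, median 6.39, against 4.14 to 5.02 on chimeric control arrays, median 4.51. In SD rats, PB livers had 5.72, 5.22, 5.81 and 4.86, against 4.37, 4.49, 5.0 and 4.75 in SD control livers. The chimeric groups did not overlap, whereas 1 SD PB liver lay within the SD control range. The difference was 1.07 ± 0.27 (adjusted p = 0.00596 by limma), with a within-slide value of 1.09, held. Abcc3, the pump of the blood-facing membrane, had -1.33 to -0.59 on chimeric PB arrays and -6.32 to -3.47 on chimeric control arrays. SD livers under PB had -1.74, -1.57, -1.67 and -1.73, while no SD control liver was well above background. In chimeric mice 5 of 7 control arrays had it well above background, so the fitted 11-fold rise there includes dim arrays. PB raised it at least 24.8-fold in SD rats, a bound taken against the dimmest signals well above background on the SD control arrays. The fitted difference passed as lower in chimeric mice (adjusted p = 0.0338 by limma, held), and no size is given because controls of both models were dim. The call was lost with median centring, with normexp correction and without any 1 of chimeric controls 1, 5 and 7, SD controls 3 and 4 and all 4 SD PB arrays. Of 19 hepatic transporters 2 were higher, Abcc2 and the uptake carrier Slco1b2, and 1 was lower, beside 7.20% and 13.5% of all genes.

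**Figure D3:**
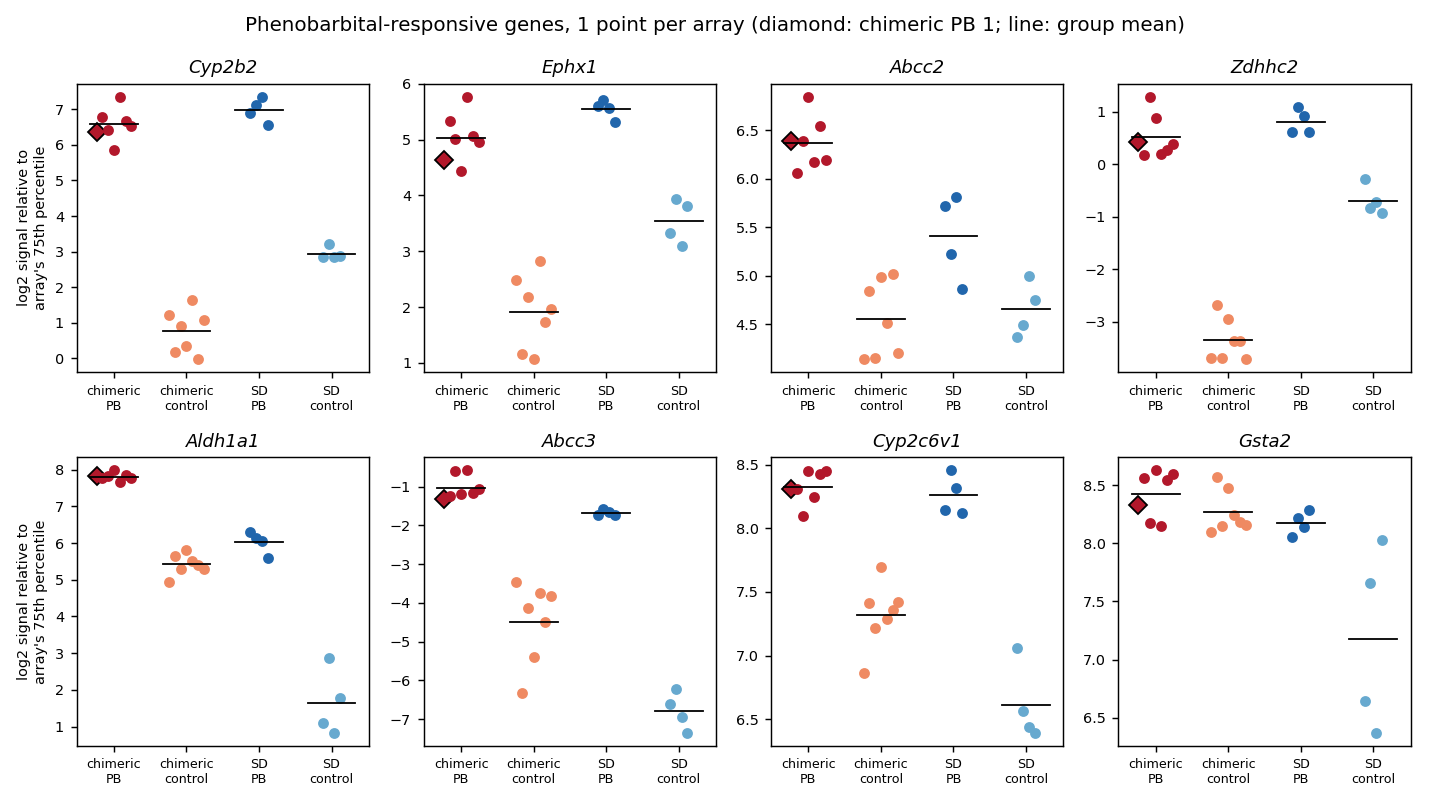
Levels of 7 genes of drug metabolism and of the palmitoyltransferase Zdhhc2 on each array (log2 signal relative to the array's 75th percentile) in chimeric PB, chimeric control, SD PB and SD control livers. Each point is 1 array, the line is the group mean, and the diamond is chimeric PB replicate 1, which shares a slide with the chimeric controls. For Cyp2b2, Ephx1 and Zdhhc2 the chimeric controls lie below the SD controls, and for Aldh1a1, Abcc3, Cyp2c6v1 and Gsta2 above them on average.

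Antioxidant genes leaned to the higher side. Of 27 genes of the NRF2 list, 7 were higher (Abcc2, Srxn1, Sqstm1, Gclc, Gsr, Tkt and Blvrb, of which Abcc2 and Gclc were held) and 1 was lower (Abcc3), beside 7.20% and 13.5% of all genes. The list's median response was 0.96 in chimeric mice and 0.34 in SD rats, and its median difference was 0.55, or 0.33 within the slide.

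Outside the listed families, a small group of genes rose in both models and more in chimeric mice. Zdhhc2, a protein palmitoyltransferase, had 0.17 to 1.28 on chimeric PB arrays, median 0.39, against -3.71 to -2.68 on chimeric control arrays, median -3.37. The SD rats on PB had 0.61, 1.08, 0.92 and 0.61, against -0.29, -0.83, -0.72 and -0.94 in SD control livers. PB and control arrays were apart in both models. The rise was 14.5-fold in chimeric mice and 2.83-fold in SD rats, a difference of 2.36 ± 0.29 with an adjusted p of 2.58e-05 by limma. With the slide as a term it was 2.27, with an adjusted p of 0.0134.

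App, the amyloid precursor protein gene, rose by 3.14 ± 0.12 in chimeric mice and 1.81 ± 0.16 in SD rats (difference 1.33, adjusted p = 0.000158 by limma). Its control levels were alike, 0.92 to 1.40 in chimeric mice and 1.19 to 1.6 in SD rats. The models parted under PB, where chimeric livers had 4.03 to 4.36 and SD livers 2.75 to 3.61. Cxcl9, a chemokine of T cell attraction, had 0.05 to 0.63 on chimeric PB arrays and -3.05 to -2.17 on chimeric control arrays, against 0.24 to 1.27 in SD PB livers and -1.02 to -0.69 in SD control livers. Its difference was 1.45 ± 0.28 (adjusted p = 0.000826 by limma, held), lost with normexp correction. The same pattern, called in SD rats and held as larger in chimeric mice, was seen for Ddc, the aromatic amino acid decarboxylase, with a difference of 1.05, for Avpi1 with 0.89, for the dolichol synthesis gene Dhdds with 0.74 and for the mitochondrial carrier Slc25a35 with 0.58. The call of Slc25a35 was lost with normexp correction and with quantile normalization. Caprin1, an RNA-binding protein gene, went the other way with -1.26, although its second probe gave 0.14.

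Of the genes with a symbol measured in both models, the largest higher difference was in Lpl, lipoprotein lipase, which releases fatty acids from circulating triglyceride and is low in adult hepatocytes. No chimeric control array had it well above background, with levels of -7.0 to -4.60. All 7 chimeric PB arrays did, at -0.61 to 0.42 with a median of -0.06. SD PB livers had -2.32, -2.57, -1.93 and -3.19, against -3.64, -3.44, -3.46 and -4.25 in SD control livers. The SD groups did not overlap, but the SD response of 1.20 ± 0.36 did not pass (adjusted p = 0.14 by limma). In chimeric mice PB raised Lpl at least 41.1-fold, and the response exceeded that of SD rats by at least 4.17 on the log2 scale. The fitted difference had an adjusted p of 1.51e-06 by limma, or 0.00016 with the slide as a term.

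Thrsp, a regulator of lipogenesis that responds to thyroid hormone and carbohydrate, rose in chimeric mice to 2.97 to 4.49, against -0.27 to 2.84 in chimeric controls. In SD rats, PB livers had 4.29, 4.84, 4.28 and 4.18, within the span of the SD controls at 5.08, 3.44, 4.41 and 4.96. The difference of 1.91 ± 0.59 was held (adjusted p = 0.0244 by limma), and it was lost without SD control 1 or SD control 4 and with the 22 arrays fitted alone. The chimeric PB range overlapped the SD values on either diet, and the chimeric control range, up to 2.84, lay below all of them. Of 26 lipogenic genes 3 were higher, Lpl, Thrsp and the transcription factor Mlxipl at 0.78, and none was lower, beside 7.20% and 13.5% of all genes. The fatty acid synthase Fasn had a difference of 0.21 ± 0.61.

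In fatty acid oxidation the models differed in 8 of 44 genes, all higher, among them Cpt1a, Acaa1b, Acadvl, Slc25a20, Cpt2, Acadl and Acads, beside 7.20% of all genes called higher and 13.5% called lower. None of the 8 was held. Cpt1a, the carnitine palmitoyltransferase that admits fatty acids to mitochondria, fell in SD rats to 0.66, 0.67, 0.91 and 0.08, against 1.52, 1.58, 1.53 and 2.58 in SD controls. In chimeric mice it had 1.12 to 3.11 under PB and 1.71 to 2.33 on control diet, with a response of 0.01 ± 0.22. The difference was 1.23 ± 0.37 (adjusted p = 0.0194 by limma), with a within-slide value of 1.07. It was lost without SD control 4 or SD PB 4. Acadvl, the very-long-chain acyl-CoA dehydrogenase, had 4.62 on the PB array of the controls' slide and 5.15 to 5.56 on the 6 others, against 4.39 to 4.98 on chimeric control arrays. Slc25a20, the carnitine carrier, likewise had a difference of 0.78 with all PB arrays and 0.30 within the slide. The list's median difference was 0.31, or 0.11 within the slide.

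For further genes that differed as higher, the SD response did not pass. Hdc, histidine decarboxylase, which makes histamine, had 0.95 to 2.16 on chimeric PB arrays and -2.0 to 0.44 on chimeric control arrays. SD livers under PB had -0.85, -1.08, -1.05 and -0.77, against -0.31, -0.50, -1.18 and -1.18 in SD control livers, which overlap. The difference was 2.55 ± 0.48 (adjusted p = 0.000657 by limma) and was held. Slc2a5, the fructose transporter, had 0.68 to 2.92 on chimeric PB arrays and -1.34 to 1.07 on chimeric control arrays, with a difference of 2.33 ± 0.52. Cndp1, a dipeptidase of carnosine, had -2.12 to -0.87 on chimeric PB arrays and -4.83 to -3.27 on chimeric control arrays, against -1.44 to -1.01 in SD PB livers and -1.46 to -1.22 in SD control livers. The chimeric PB range thus overlapped the SD values on either diet, while every chimeric control lay below them. The difference in Cndp1 was 2.35 ± 0.35 (adjusted p = 0.000158 by limma) and reached an adjusted p of 0.057 with the slide as a term. Fabp2, a fatty acid binding protein of the intestine, had a difference of 2.04 and the acetyltransferase family member Nat8f5 one of 1.97, both held, the call of Nat8f5 being lost with normexp correction. Cndp1 was well above background on 4 of 7 chimeric control arrays and Nat8f5 on 5 of 7.

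Of the 16 genes or transcripts that passed with and without the slide term, 8 had a symbol. The higher ones were Lpl, Zdhhc2, Tor4a, Tmem184b and Asb5. Tor4a, a torsin ATPase family member, was well above background on 6 of 7 chimeric PB arrays and on no chimeric control array, and exceeded the SD response by at least 1.78 on the log2 scale. Tmem184b had a difference of 1.59 ± 0.22 (adjusted p = 7.96e-05 by limma), and Asb5, a SOCS box protein gene, had 0.89 ± 0.22, lost with normexp correction. The lower ones were Elf5, Gnmt and Pop1. Gnmt, glycine N-methyltransferase, which consumes S-adenosylmethionine, had 4.89 to 6.2 on chimeric PB arrays, median 5.68, against 6.42 to 7.19 on chimeric control arrays, median 6.96. The SD rats on PB had 6.09, 6.16, 5.87 and 6.46, against 6.40, 6.81, 6.55 and 6.70 in SD control livers. The lowest chimeric value, 4.89, was that of PB replicate 1. The difference was -0.79 ± 0.23 (adjusted p = 0.0184 by limma), or -1.58 within the slide, and it was lost without SD PB 4, with the 22 arrays fitted alone and with median centring. Pop1, a subunit of RNase P, had -0.58 ± 0.17, or -1.06 within the slide, and was lost with median centring. Its level was -1.24 on chimeric PB replicate 1, apart from -0.86 to -0.58 on PB replicates 2 to 7. Elf5 had -5.10 to -4.38 on chimeric PB arrays and -3.33 to -2.85 on chimeric control arrays, but no SD PB liver was well above background, so no size is given for its difference.

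Slc25a34 and Pcp4l1 fell in SD rats and had no called response in chimeric mice, and the other genes given here had other patterns. Slc25a34, a mitochondrial carrier, fell in SD rats to -4.85, -4.67, -4.71 and -4.42, against -3.02, -2.78, -3.15 and -3.74 in SD controls. In chimeric mice it had -1.35 to -0.44 under PB and -1.86 to -0.74 on control diet, a response of 0.44 ± 0.22 that did not pass. In SD rats 1 of 4 PB livers had it well above background, against 4 of 4 control livers. The difference was 1.93 ± 0.36 (adjusted p = 0.000614 by limma, held). Pcp4l1 fell by 1.66 on the log2 scale in SD rats and had a response of 0.09 in chimeric mice. Its difference of 1.75 was held and was lost without SD PB 4, the lowest SD value at -3.38, and with array weights. Cyp2c12, a CYP2C enzyme expressed mainly in female rats, had 0.53 to 2.02 in SD PB livers and 1.23 to 3.31 in SD control livers, and -0.44 to 1.63 and -1.17 to 0.46 on chimeric PB and control arrays. Neither response passed, but the difference of 2.10 did (adjusted p = 0.0176 by limma, not held) and was lost without SD PB 3. Ten1, a telomere-binding protein gene, at 2.40, and Zfp354a, a zinc finger gene, at 2.19 had the same signs, negative in SD rats and positive in chimeric mice. Both were held, and Ten1 was lost without SD control 3. Prom1, a membrane protein of progenitor cells, had a response of 1.85 in chimeric mice and -0.20 in SD rats. Its difference of 2.05, or 1.16 within the slide, was not held. A second Prom1 probe gave 1.61, or -0.26 within the slide. Prom1 was well above background on 2 of 7 chimeric control arrays. Its call was lost without SD control 2, with the 22 arrays fitted alone and with normexp correction. Mt2A, a metallothionein, was lower under PB in both models, by 1.30 and 2.31 on the log2 scale, with a difference that did not pass (adjusted p = 0.371 by limma).

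Among replication genes, Tk1, the S-phase thymidine kinase, rose in chimeric mice to 1.07 to 1.69, against -0.45 to 0.08 in chimeric controls. SD PB livers had 0.50, 0.69, 0.53 and 0.42, against 0.05, 0.21, -0.20 and 0.08 in SD control livers. Neither model's groups overlapped. The SD response of 0.50 did not pass, and the difference was 1.07 ± 0.17 (adjusted p = 0.000255 by limma, held). Of 24 S-phase genes measured in both models, Tk1 and Dut were higher and none lower, beside 7.20% and 13.5% of all genes, with a median difference of 0.43, or 0.45 within the slide. Of 20 mitosis genes, Mad2l1 was higher and held, with a list median of 0.34, or 0.61 within the slide. Gadd45b, a stress and growth gene known for its early response to CAR activators, rose by 1.59 ± 0.33 in chimeric mice and 1.78 ± 0.44 in SD rats, a difference of -0.19 ± 0.55. The cyclin gene Ccnd1 had 0.27 ± 0.35. Of 28 growth arrest, p53 and early growth genes, Tgfa, Cdkn2a and Cdkn1a were lower, none held.

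**Figure D4:**
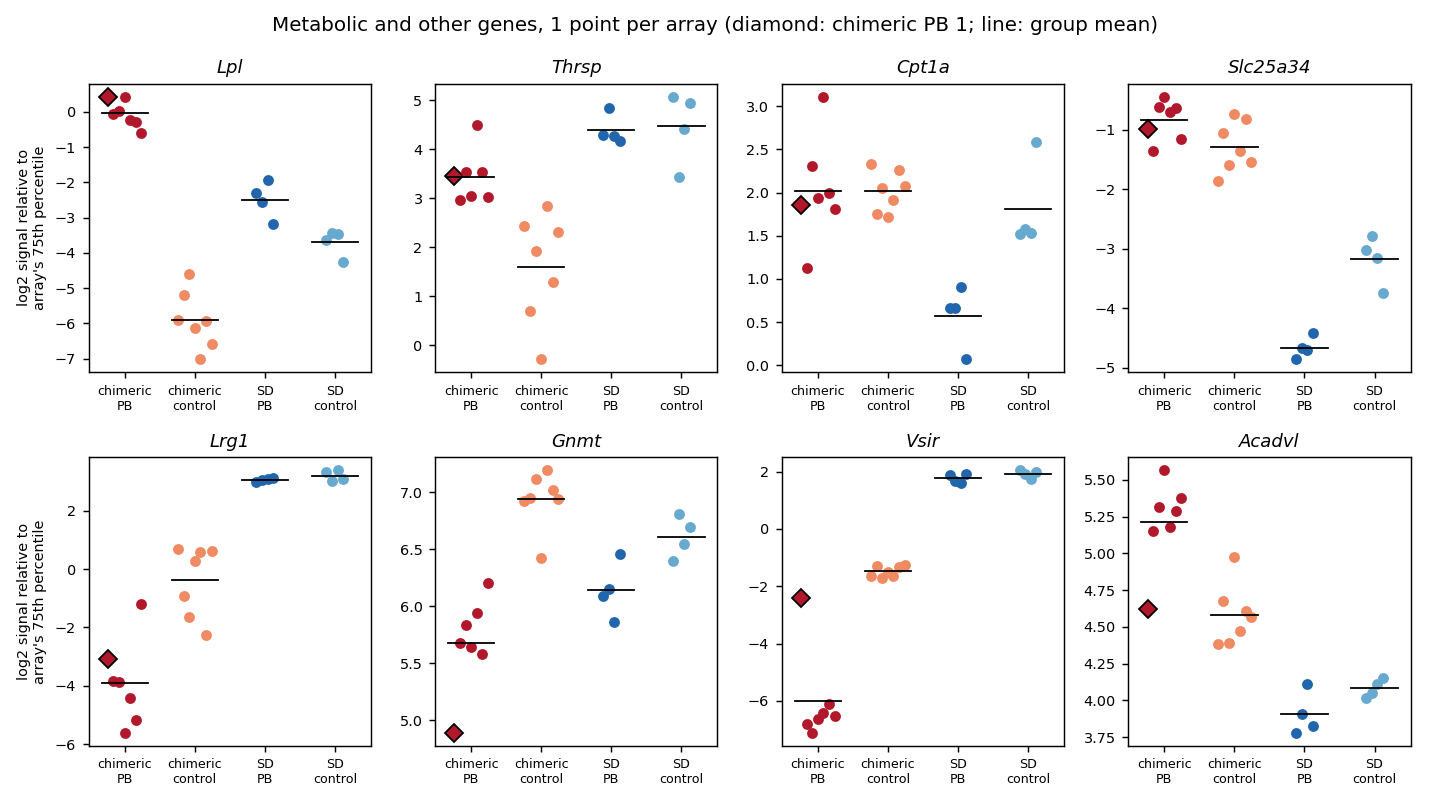
Levels of 8 genes outside drug metabolism on each array (log2 signal relative to the array's 75th percentile) in chimeric PB, chimeric control, SD PB and SD control livers. Each point is 1 array, the line is the group mean, and the diamond is chimeric PB replicate 1. For Lpl, Thrsp and Gnmt the diamond lies with the other PB arrays or beyond them, whereas for Vsir it lies at -2.41 near the controls and for Acadvl at 4.62 among them.

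Among the lower differences that were held, Lrg1, a secreted acute-phase glycoprotein, had -5.61 to -1.19 on chimeric PB arrays and -2.24 to 0.70 on chimeric control arrays, ranges that overlap. In SD rats, PB livers had 2.96, 3.05, 3.09 and 3.13, against 3.31, 3.03, 3.37 and 3.08 in SD control livers, so that SD livers were higher throughout. The difference was -3.37 ± 0.80 (adjusted p = 0.00423 by limma), or -2.58 within the slide. Igfbp2, an IGF binding protein, fell in chimeric mice to 0.04 to 1.68, against 2.15 to 4.79 in chimeric controls, while SD livers had -3.68 to -1.42 under PB and -2.76 to -1.82 on control diet. Its difference was -2.52 ± 0.61, or -3.68 within the slide. Both of its probes showed it, the second with -2.26. Further held genes were Stac3 at -2.29, the secretoglobin Scgb1a1 at -2.08, the trypsin inhibitor Spink1 at -2.0, the BMP ligand Gdf6 at -1.94, the glycosyltransferase B3gnt3 at -1.85, Fam89a at -1.79 and the monocyte chemokine Ccl2 at -1.77. Nxpe1 was well above background on no chimeric PB array and on 2 of 4 SD PB arrays, and its call was lost with normexp correction, so no size is given. On chimeric PB arrays Lrg1 was well above background on 5 of 7, Stac3 and Gdf6 on 6, Scgb1a1 on 4 and B3gnt3 on 2, so their fitted values include dim arrays. Of 26 acute phase and inflammation genes, Ccl2 was lower and none was higher, beside 13.5% and 7.20% of all genes. The list median was -0.17, or -0.60 within the slide. Hsd11b1, which regenerates active glucocorticoid, was lower by 0.79 and held, and it was lost with median centring.

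Most of the 12 largest lower differences were much smaller within the slide. Vsir, an immune checkpoint gene of myeloid cells, had -2.41 on chimeric PB replicate 1 and -7.11 to -6.12 on PB replicates 2 to 7, against -1.71 to -1.25 on chimeric control arrays. SD livers under PB had 1.88, 1.68, 1.59 and 1.91, against 2.04, 1.94, 1.74 and 2.0 in SD control livers. Only replicate 1 of the chimeric PB arrays was well above background. The difference was -4.36 ± 0.69 with all PB arrays (adjusted p = 0.000239 by limma) and -0.77 within the slide. Id3, a helix-loop-helix inhibitor, had -3.79 and -0.47 by those measures, the actin-bundling gene Fscn1 had -3.68 and -0.23, and the MHC class II gene RT1-Da had -3.32 and -0.62. For these 4 genes PB replicate 1 was the one array of its group well above background, so the values over all PB arrays include dim arrays. On RT1-Da replicate 1 had -3.20, below every chimeric control, and that call was lost with normexp correction. Tlr12 had -3.16 with all PB arrays and -0.90 within the slide, Gzmb -2.82 and -0.60, Pcdh20 -2.72 and -0.67, Ccl12 -2.70 and -0.77, the G protein gene Gnal -2.66 and -0.05, and Pcyox1l -2.60 and -0.07. Replicate 1 was also the one PB array well above background for Tlr12 and Gzmb, and Pcdh20 was on 2 of 7 and Ccl12 on 5. A second Gzmb probe gave a difference of 0.21. Hrh4, a histamine receptor gene, was in between, with -3.11 and -1.73. Its levels were -0.10 to 2.93 on chimeric PB arrays and 3.26 to 6.28 on chimeric control arrays, against -1.62 to -1.17 in SD PB livers and -1.54 to -0.97 in SD control livers. With Lrg1 it was the member of the 12 whose within-slide value stayed beyond 1 log2 unit. Beside these genes, the macrophage markers averaged -2.46 to -1.98 on chimeric PB arrays and -2.04 to -1.6 on chimeric control arrays, and the T, NK and B cell markers -6.30 to -5.47 and -5.66 to -5.17. The part of these cells in the differences was not tested.

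Among the other lists, of 18 bile acid genes, Amacr, which racemizes bile acid intermediates, was higher by 0.85 and held. Of 25 genes of gluconeogenesis and glycolysis, Eno1 was higher, and Pfkfb3 and Pygl were among the lower ones, none held. Of 27 interferon-responsive genes, Stat2 at 0.63 and Irf9 were higher and Igtp and Mx1 lower, and Stat2 alone was held. None of 25 genes of the unfolded protein response, 20 periportal genes, 12 pericentral genes or 8 fetal genes passed, beside 7.20% of all genes called higher and 13.5% called lower. Of 16 metallothionein and glucocorticoid-responsive genes, Slc39a4 was higher, and Nr3c1 and Hsd11b1 were lower. The Nr3c1 value was -0.81, or -0.14 within the slide, and a second probe gave 0.36. Of 21 male-predominant growth hormone targets, Igfals, which stabilizes circulating IGF, was higher by 1.11, with 0.59 within the slide. Of 10 female-predominant genes, Cyp2c12 and Cyp2a1 were higher. Albumin (Alb) had a difference of -0.35 ± 0.15 that did not pass.

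**Figure D5:**
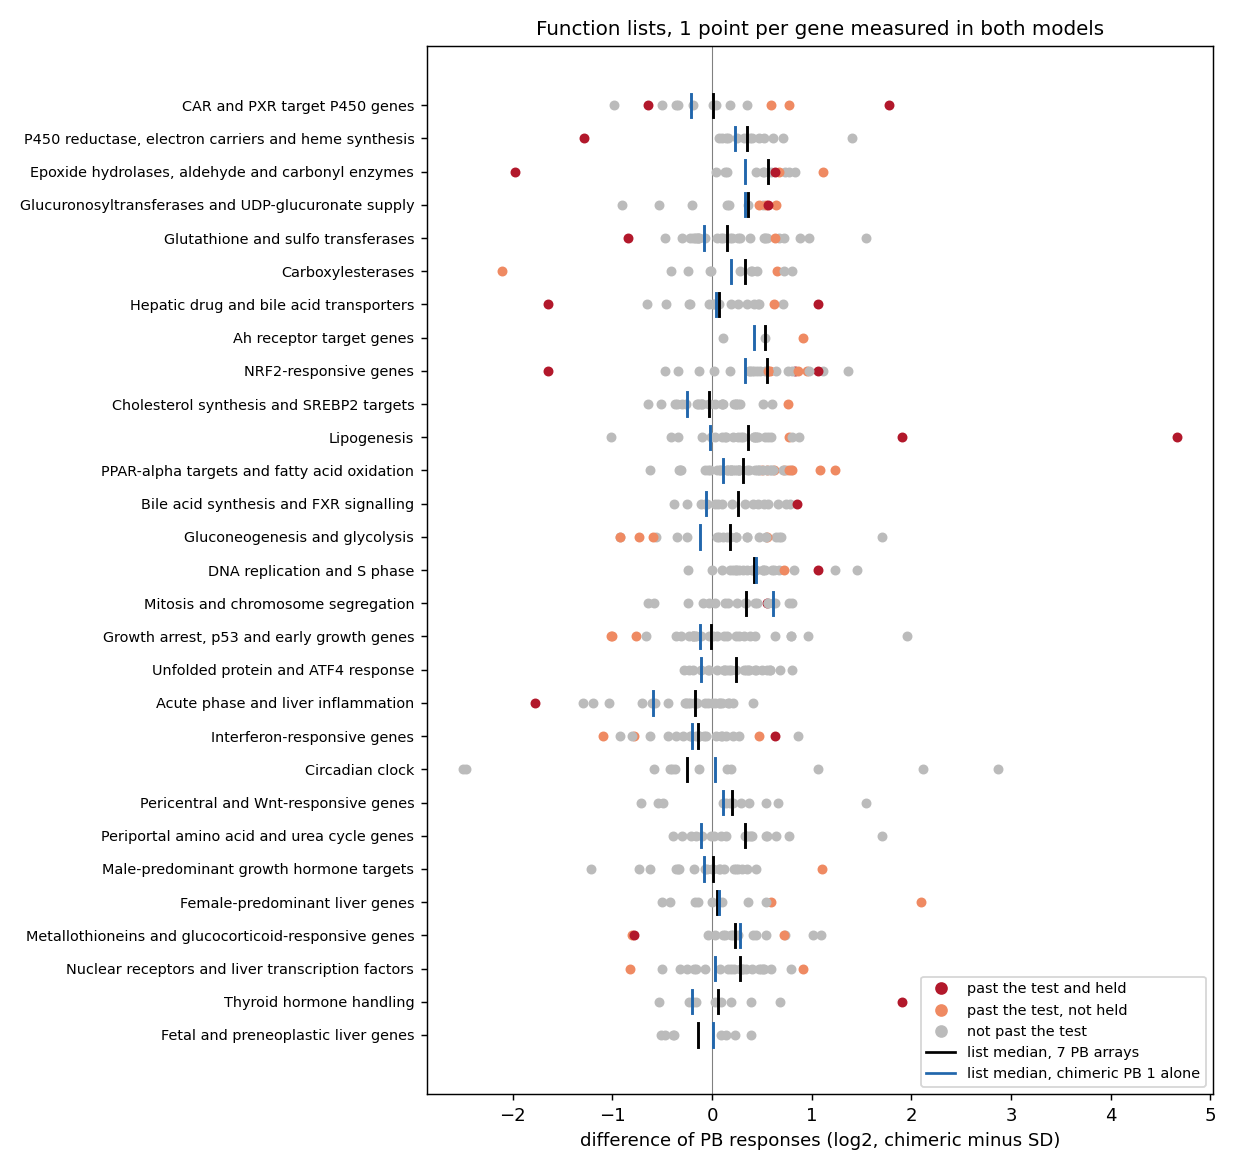
The difference of PB responses (log2, chimeric minus SD) for the genes of each function list measured in both models, 1 point per gene. Red points passed the test and were held, orange points passed and were not held, and grey points did not pass. The black tick is the list median with all 7 chimeric PB arrays and the blue tick that with PB replicate 1 alone, and for fatty acid oxidation the ticks lie at 0.31 and 0.11.

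The circadian list separated single chimeric animals. Dbp, a transcription factor under clock control, had 0.89 to 7.31 on chimeric PB arrays, median 5.73, and 0.57 to 5.53 on chimeric control arrays, median 2.23. The SD rats on PB had 1.01, 0.91, 0.76 and 1.04, against 0.96, 0.97, 0.83 and 0.32 in SD control livers. Bmal1, a core activator of the clock, had -3.34 to 1.77 on chimeric PB arrays and -1.74 to 2.05 on chimeric control arrays, against 0.93 to 1.06 in SD PB livers and 0.85 to 0.97 in SD control livers. Chimeric PB 2 had the highest Bmal1 and the lowest Dbp of its group, and chimeric control 6 the lowest Bmal1 and the highest Dbp of its own. The SD arrays spanned less than either chimeric group in both genes. None of the 12 clock genes measured in both models passed in the difference, beside 7.20% of all genes called higher and 13.5% called lower. Dbp had a difference of 2.87 ± 1.14 and Bmal1 one of -2.50 ± 0.99. The part of this spread in the other differences was not tested.

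Markers of other cells were called in several lists, beside 7.20% of all genes called higher and 13.5% called lower. Of 6 erythroid genes measured in both models, Ahsp, Hbb-b1, Alas2 and Hba-a1 were higher, of which only Ahsp was held. The list's median difference was 1.28, or 0.88 within the slide. Its median response was 0.65 in chimeric mice, or 0.26 from replicate 1, and -0.66 in SD rats. Mean erythroid marker levels were 0.00 to 0.64 on chimeric PB arrays and -0.49 to 0.11 on chimeric control arrays, against 1.41 to 2.17 in SD PB livers and 1.58 to 2.77 in SD control livers. Of 10 macrophage genes, Cd68 and Clec4f were lower, of 4 endothelial genes Cdh5 was lower, and of 14 stellate cell genes Sparc was higher, none held. Of 3 T, NK and B cell genes, Gzmb and Cd3d were lower, neither held. Endothelial markers averaged -3.88 to -3.33 on chimeric PB arrays and -3.61 to -2.41 on chimeric control arrays, against -0.62 to -0.37 in SD PB livers and -0.53 to -0.36 in SD control livers. Of 10 endothelial markers, 4 were well above background on all chimeric PB arrays and 4 on all chimeric control arrays. Of 17 macrophage markers, 9 were so on all chimeric PB arrays and 10 on all chimeric control arrays. By contrast, Tek, Tie1, Emcn and Oit3 were well above background on no chimeric array, and Ptprc, Aif1 and Marco among the macrophage markers likewise.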

How the data were processed

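Liver RNA was hybridised to 1-colour Agilent rat arrays (design 028279), 1 array per animal, as the labels number separate biological replicates. Spot intensity (processed signal) was deposited as scanner output of Feature Extraction 10.7.3.1, per the file headers, already corrected for background by that software. The deposited series table holds log2 values and served as an alternative. Their mean offset from the scaled log2 signals used here was at most 0.0138 on any array.

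From the scanner files, 4259 of 62976 spots were control spots and left out, spots of a probe were averaged, and log2 signal minus the array's 75th percentile was taken. Of 30367 probes, 18004 matched 15170 symbols of the RefSeq gene table by accession (assembly GRCr8, used for names only), and 12363 stayed unnamed transcripts. The probe of highest mean stood for a gene. Genes well above background on at least 75% of the arrays of 1 group were tested. One limma 3.58.1 fit in R 4.3.3 of the 6 group means over 30 arrays gave each response and their difference, with Benjamini-Hochberg adjustment over 17255 genes. The number of arrays limits the precision. Where every array of a group was not well above background, a bound replaced the fold. It was taken, array by array, against the dimmest signal that the scanner software called well above background, or against the probe's own signal where that was higher.

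Named genes were the 12 largest differences in each direction with a symbol, measured in both models and of the same sign within the slide, up to 4 called members of each function list (up to 2 where none was called), and a panel of PB-responsive genes. The held rule, the 12 largest held differences in each direction, and the genes past both fits or called in SD rats and held were added after the data were seen. The 37 gene lists and the members were chosen with earlier results of these data known. Alternatives covered the slide, background correction, scaling, filter, probe choice, array weights and single arrays. The files hold no mean signal, so the normexp alternative used the median signal with an offset of 50. Replicate numbers did not pair the samples. Some genes are not reported here.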

Additional observations from a re-analysis of the deposited data

Results flagged for a closer look

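Single arrays stood far from the rest of their group (Dixon's gap test) in 34 of 348 gene and group combinations examined, where chance gives about 1 in 20. Of these, 14 were among the 87 genes in chimeric PB livers, 4 in chimeric control livers, 9 in SD PB livers and 7 in SD control livers, and chimeric PB replicate 1 accounted for 10. Levels of chimeric PB replicate 1 apart from those of replicates 2 to 7 were Ces1a at 0.55, Slc25a20 at 3.12, Igfals at 1.90, Vsir at -2.41, Id3 at -2.21, Fscn1 at -2.04, RT1-Da at -3.20, Gnal at 0.0581, Pcyox1l at 1.99 and Pop1 at -1.24. Other levels apart from the rest of the chimeric PB group were Ugt2b1 at 7.38 on array 5, Ces2c at 1.58 on array 4, Thrsp at 4.49 on array 5 and Ten1 at -1.51 on array 4. Levels apart from the rest of the chimeric control group were Tor4a at -5.10 on array 2, Scgb1a1 at -3.97 on array 6, Gnmt at 6.42 on array 4 and Bmal1 at -1.74 on array 6. Levels apart from the rest of the SD PB group were Cyp2c7 at 6.95 on array 1, Cyb5r1 at 2.91 on array 2, Thrsp at 4.84 on array 2, Zfp354a at -2.08 on array 2, Pcdh20 at -4.23 on array 4, Gnal at -1.88 on array 1, Stac3 at 4.31 on array 2, B3gnt3 at -3.66 on array 1 and Bmal1 at 1.06 on array 3. Levels apart from the rest of the SD control group were Cyp2b2 at 3.21 on array 2, Mlxipl at 1.03 on array 2, Cpt1a at 2.58 on array 4, Hsd11b1 at 5.63 on array 2, Cxcl9 at -0.69 on array 1, Asb5 at -3.31 on array 4 and Ccl12 at 0.68 on array 2.

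The PB response differed between the models by limma for 69 of the 87 genes named with values. Many of these genes were named because their difference passed, so this count follows from the choice. Of all genes tested 18.9% passed, and of those measured in both models 20.7%. The values listed next are those with all 7 chimeric PB arrays, without the within-slide values. The fitted differences (log2, chimeric minus SD) of the higher genes were, in falling order, Lpl 4.67, Hdc 2.55, Tor4a 2.42, Ten1 2.40, Zdhhc2 2.36, Cndp1 2.35, Slc2a5 2.33, Zfp354a 2.19, Cyp2c12 2.10 and Prom1 2.05. Next came Fabp2 2.04, Nat8f5 1.97, Slc25a34 1.93, Thrsp 1.91, Cyp2b2 1.77, Pcp4l1 1.75, Tmem184b 1.59, Cxcl9 1.45, App 1.33 and Cpt1a 1.23. Next came Ephx1 1.11, Igfals 1.11, Acaa1b 1.09, Abcc2 1.07, Tk1 1.07, Ddc 1.05, Avpi1 0.89, Asb5 0.89, Amacr 0.85 and Acadvl 0.81. Next came Mlxipl 0.78, Slc25a20 0.78, Dhdds 0.74, Stat2 0.63, Cbr1 0.63, Slc25a35 0.58 and Slc35d1 0.57. The lower genes were, from the most negative, Vsir -4.36, Id3 -3.79, Fscn1 -3.68, Lrg1 -3.37, RT1-Da -3.32, Tlr12 -3.16, Hrh4 -3.11, Gzmb -2.82, Pcdh20 -2.73 and Ccl12 -2.70. Then followed Gnal -2.66, Pcyox1l -2.60, Igfbp2 -2.52, Stac3 -2.29, Ces1a -2.10, Scgb1a1 -2.08, Spink1 -2.0, Aldh1a1 -1.98, Gdf6 -1.94 and Nxpe1 -1.86. Then followed B3gnt3 -1.85, Fam89a -1.79, Ccl2 -1.77, Abcc3 -1.64, Elf5 -1.34, Cyb5r1 -1.29, Caprin1 -1.26, Gsta2 -0.84, Gnmt -0.79 and Hsd11b1 -0.79. Then followed Cyp2c6v1 -0.64 and Pop1 -0.58. The fitted values include arrays not well above background for Lpl, Tor4a, Abcc3, Cndp1, Prom1, Nat8f5, Slc25a34, Vsir, Id3, Fscn1, Lrg1, RT1-Da and Tlr12. The same holds for Gzmb, Pcdh20, Ccl12, Stac3, Scgb1a1, Gdf6, Nxpe1, B3gnt3 and Elf5. Those of Lpl, Tor4a, Abcc3, Nxpe1 and Elf5, with a group dim on every array, are not sizes.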

How the results depend on the processing

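The slide moved the counts most. With the slide as a fixed block, 32 genes passed in the difference, 21 of them measured in both models, and 536 in the chimeric response. With the slide as a random block these counts were 488, 445 and 3796, and with chimeric PB replicate 1 alone they were 167, 92 and 1060. These fits rest on fewer chimeric PB arrays or a wider error, and the cause of the change was not tested further. Eno1 (-0.0235), Tgfa (0.13) and Mx1 (0.12) changed sign under the fixed block and with replicate 1 alone. The SD response passed for 1870 genes with no filter on dim probes and 877 with array weights. The held genes numbered 252 when only the 22 arrays were fitted. Genes past the test with and without the slide term numbered 4 with 22 arrays, 27 with normexp correction, 10 with median centring, 34 with the percentile over probes detected on all arrays and 5 with array weights. Those 2 rules were not recomputed under the slide settings.

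Leaving out single arrays gave 2624 to 4469 genes for the difference, 2368 to 4034 for those measured in both models, 7888 to 8868 for the chimeric response, 118 to 235 for the SD response, 319 to 455 held genes and 12 to 25 past both fits. The highest count of the difference came without chimeric PB 1 and the lowest without SD control 3, and the 25 past both fits came without chimeric PB 4. The share of higher calls was 25.7% with 22 arrays and 67.5% with median centring. With the replicate number as a block within each model, 3863 genes passed in the difference, 3490 of them measured in both models, 9167 in the chimeric response and 215 in the SD response. Deviations of same-numbered arrays correlated at -0.18 to 0.69 in chimeric mice, 3 of 7 best with their own number, and at -0.09 to 0.06 in SD rats, 0 of 4.

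Of the 69 called genes given with values, 47 kept their call under all settings other than those of the slide, and 58 in every fit without 1 array. With the slide as a random block 37 passed, with replicate 1 alone 14 and with the fixed block 8. Lpl, Tor4a, Zdhhc2 and Tmem184b passed under every setting run. Dim signal limits the chimeric controls for Lpl and Tor4a, the chimeric PB arrays for Nxpe1, Vsir, Id3, Fscn1, RT1-Da, Tlr12, Gzmb, Pcdh20 and B3gnt3, the SD arrays for Elf5, and the controls of both models for Abcc3.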
